A study of Mus musculus with 19 samples.

Results

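The genes described here are 10 of the 13 protein genes of the mouse mitochondrial genome: *mt-Nd1*, *mt-Nd2*, *mt-Nd4*, *mt-Nd5* and *mt-Nd6* of complex I, *mt-Cytb* of complex III, *mt-Co1*, *mt-Co2* and *mt-Co3* of complex IV, and *mt-Atp6* of the ATP synthase. They were picked by name among the 54352 genes of the count files, with earlier results of these data known, and were read in all 19 libraries. Of the 10, 7 had reads in every library and 3 (*mt-Co2*, *mt-Co3* and *mt-Atp6*) had 0 counts in every library. The question was what these libraries can say about the mitochondrially encoded part of the respiratory chain upon knockdown of the lncRNA *Spehd*.

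HSCs of C57BL6 mice were transduced with a doxycycline-inducible shRNA vector in which the shRNA is expressed together with the reporter zsGreen and the SFFV promoter drives the doxycycline-dependent activator rtTA, and were transplanted without competitor cells into sublethally irradiated recipients that carry the *cKit-w41* allele. After 10 weeks of reconstitution, all animals, controls included, received doxycycline in their food for 6 days, and zsGreen+ cells were sorted. LSK cells (KLS in the labels, a compartment of stem and early progenitor cells) and common myeloid progenitors (CMPs) carried an shRNA against *Renilla* luciferase, which has no target in the mouse, or one of the shRNAs sh10 and sh20 against *Spehd* (12928-10 and 12928-20 in the labels). CMPs gave 4 libraries with *Renilla* shRNA, 3 with sh10 and 2 with sh20, and LSK cells gave 4, 3 and 3. The labels do not say that replicates of a group came from separate animals, so the tests measure the spread between these libraries, and in bulk libraries fewer cells of a type and less RNA per cell cannot be told apart.

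The mitochondrial genome is a small circle that is transcribed from both strands as long precursors, which are cut into rRNAs, tRNAs and mRNAs mostly at the tRNAs that lie between them. All but *mt-Nd6* among the members are read from the heavy-strand transcript, so their mRNAs begin as parts of one precursor and differ in abundance through processing and stability. Their proteins are the membrane cores of complexes whose other subunits are encoded in the nucleus, and copies of mitochondrial sequence that have moved into the nuclear chromosomes over evolution, known as NUMTs, can be identical to the genes themselves.

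The level of *Spehd* itself was not analysed here, so the knockdown was not checked in these libraries. Libraries held between 3647318 and 5965155 counts on genes. In CMPs every library with a *Spehd* shRNA held more counts (4918631 to 5965155) than every *Renilla* library (3857980 to 4314959). Sca1 (*Ly6a*), which separates the gates, lay at 1.58 to 9.72 CPM (counts per 1000000 counts on genes) in CMPs and at 39.7 to 90.7 in LSK cells, and *Kit* was present in both, at 442 to 797 and 438 to 963 CPM. The sum of 5 CMP markers (*Kit*, *Cd34*, *Mpo*, *Fcgr3* and *Gata2*) did not separate the gates in that direction, at 1398 to 2054 CPM in CMPs and 2078 to 2693 in LSK cells. Both sh20 libraries of CMPs stood apart in the markers of the gates, with 1398 and 1651 CPM for that sum against 1853 to 2054 with *Renilla* shRNA and 1817 to 2028 with sh10. They were also the lowest CMP libraries in the sum of 6 LSK markers (852 and 1030 CPM against 1175 to 1372 and 1239 to 1418), in *Cd34* (185 and 187 against 298 to 407 and 278 to 360) and in genes detected (17174 and 18066 against 18552 to 20173 and 19042 to 20275). Transcripts of 3 T cell genes (*Cd3d*, *Cd3e*, *Cd3g*) summed to 22.02 to 47.6 CPM in CMP *Renilla* libraries, 0.191 to 1.83 with sh10 and 43.3 to 98.7 with sh20. The sums of 4 macrophage genes (41.4 to 177, 50.8 to 64.7 and 129 to 284), 5 B cell genes (27.7 to 63.0, 23.0 to 36.1 and 71.6 to 172) and 6 erythroid genes (119 to 139, 71.7 to 122 and 198 to 207) are given in the same order. The B cell and erythroid sums of both sh20 libraries were above those of all other CMP libraries, while the T cell and macrophage sums overlapped with those of *Renilla* libraries. None of the T cell, macrophage or erythroid genes was at 0 throughout a CMP group, and 1 of the B cell genes was at 0 with either *Spehd* shRNA. The sum of 5 neutrophil genes in LSK cells ran from 4.204 to 271 CPM with *Renilla* shRNA, from 46.5 to 296 with sh10 and from 2.97 to 6.43 with sh20. The marrow was depleted of lineage-positive cells before the sort, a step meant to remove such cells, and their part in the results below was not tested.

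The first result is a gap along the genome. *mt-Co2* and *mt-Co3*, catalytic and core subunits of cytochrome c oxidase, and *mt-Atp6*, the proton channel subunit of the ATP synthase, had 0 reads in each of the 19 libraries, although *mt-Co1*, the protein gene before them on the same strand, had 562 to 662. A count of 0 allows up to 3 counts, which is 0.503 to 0.823 CPM depending on the library and covers counting error only. In the GENCODE vM21 annotation of GRCm38, *mt-Co2* lies at chrM:7013-7696, *mt-Atp6* at chrM:7927-8607 and *mt-Co3* at chrM:8607-9390, all on the plus strand. Each has a nuclear pseudogene on the minus strand of chromosome 1 with the same bases. The pseudogene Gm28661 matches 681 of 681 aligned bases of *mt-Co2*, Gm10925 matches 678 of 678 of *mt-Atp6* and Gm28437 matches 783 of 783 of *mt-Co3*. The first 60 bases are shown for *mt-Co2* (chrM:7013-7072, the same letters as chr1:24615506-24615565 on the minus strand) and for *mt-Co3* (chrM:8607-8666, the same letters as chr1:24613912-24613971 on the minus strand), because they are what a read from either gene would have to be placed by. No base is in capitals, since none differs between gene and copy.
mt-Co2 and Gm28661: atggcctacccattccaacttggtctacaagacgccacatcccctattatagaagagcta
mt-Co3 and Gm28437: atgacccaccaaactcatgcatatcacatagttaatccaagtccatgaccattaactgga

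These copies lie in a single stretch of chromosome 1, from 24611535 to 24616197, which holds 7 annotated pseudogenes in the order of the mitochondrial genes from 6381 to 11042. The counts of protein genes along the mitochondrial genome change at its edges. Of the 6 protein genes that lie wholly inside, 5 had 0 counts in every library and the other, *mt-Nd3*, never had more than 2. The 5 tRNA genes inside had 1 count in all libraries together. Those outside were also barely counted, with 674 counts over 17 genes, 2 of them at 0, and at most 18 in a library. The tRNA genes therefore do not mark the edges. The 5 protein genes wholly outside had between 5575 and 19505 counts over the 19 libraries, and the 2 rRNA genes 5844 (*mt-Rnr1*) and 18626 (*mt-Rnr2*). *mt-Atp8*, which lies inside, is an exception to the match with annotated copies, since it was at 0 although none of its windows of 50 bases occurs in another annotated transcript. The pseudogenes did not hold the reads either, since Gm28661, Gm10925 and Gm28437 had at most 1, 3 and 2 counts in any library. HTSeq-count by default leaves out reads that align to several places, and its line for such alignments ran from 5399421 to 11758352 per library, or 1.43 to 2.28 times the counts on genes. How many of these came from the 3 members was not tested.

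*mt-Nd4* and *mt-Co1* lie across the edges of that stretch, so part of each is shared with it. *mt-Nd4* (chrM:10167-11544, plus strand), a proton-pumping subunit of complex I, shares its first 876 bases without a mismatch with Gm28439, and 62.2% of its windows of 50 bases occur in another annotated transcript. The last 492 bases of *mt-Co1* (chrM:5328-6872, plus strand), the subunit that holds the site of oxygen reduction, match Gm29216 at 98.8%. Of the windows of *mt-Co1*, 28.7% occur in Gm29216, 27.5% in Gm13340, a pseudogene on chromosome 2, and 51.1% in any other transcript. The edge in *mt-Nd4* is shown from chrM:11013-11072, with the bases beyond the end of the copy in capitals.
mt-Nd4: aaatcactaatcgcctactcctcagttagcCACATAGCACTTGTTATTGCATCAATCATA

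The other members were nearly free of such copies at this window length. The shared part was 8.19% of the windows in *mt-Nd2* (chrM:3914-4951, plus strand), 7.61% in *mt-Nd5* (chrM:11742-13565, plus strand) and 0 in *mt-Nd1* (chrM:2751-3707, plus strand), *mt-Nd6* (chrM:13552-14070, minus strand) and *mt-Cytb* (chrM:14145-15288, plus strand). The length of the reads is not given in the sources used here. With windows of 36 or 75 bases the share in *mt-Co1* was 59.7% or 39.8%, and in *mt-Nd4* 62.6% or 61.5%. It was 11.1% or 5.71% in *mt-Nd2* and 14% or 1.66% in *mt-Nd5*. In *mt-Nd6* it was 2.69% or 0, in *mt-Cytb* 3.07% or 0, and in *mt-Nd1* 0 with both. *mt-Cytb*, the cytochrome of complex III, does have a nuclear relative on chromosome 4, Gm11410, but that copy matches only 92.8% of 1143 bases. A stretch of 60 bases at chrM:14151-14210 is set beside the copy at chr4:80003995-80004054 on the plus strand, with the bases that differ in capitals, since such differences let a read be placed.
mt-Cytb: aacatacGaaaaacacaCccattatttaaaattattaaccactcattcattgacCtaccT
Gm11410: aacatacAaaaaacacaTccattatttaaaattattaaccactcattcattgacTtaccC

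**Figure D1:**
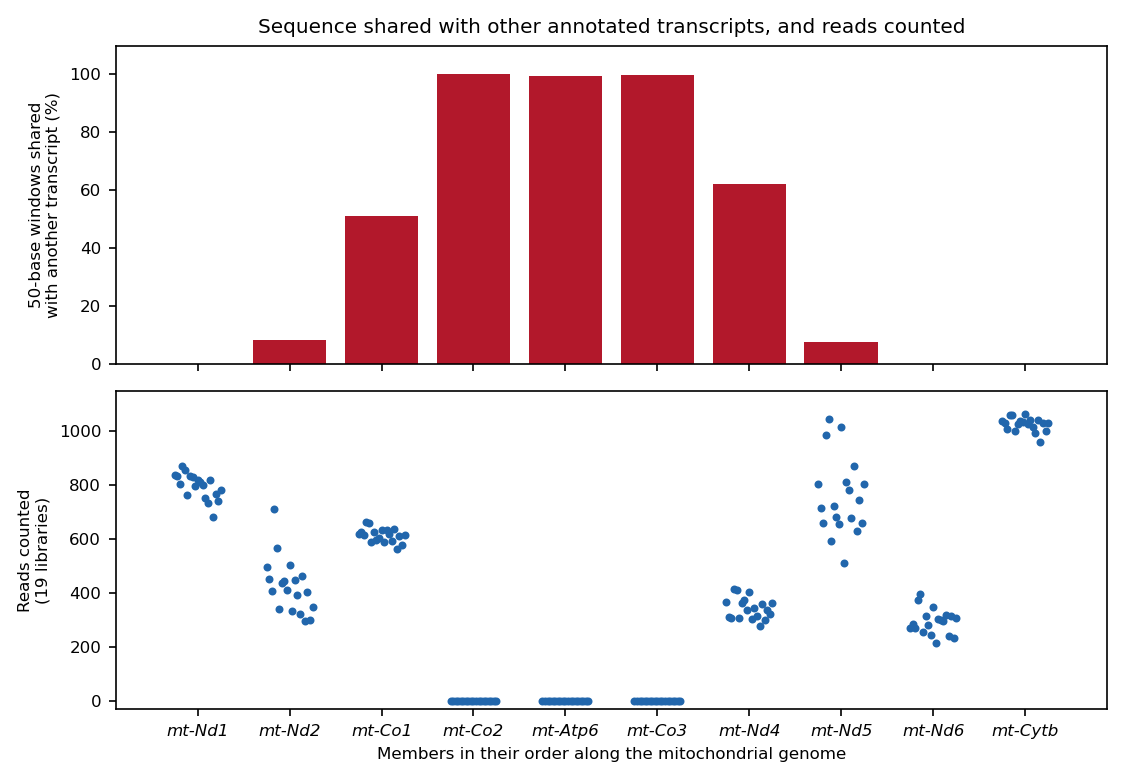
The 10 members in their order along the mitochondrial genome, with the share of their 50-base windows that occurs in another annotated transcript (bars, percent) and the reads counted in each of the 19 libraries (points). The 3 members whose windows are shared to 99.5% or more lie at 0 in all libraries, and *mt-Cytb* with no shared window lies between 959 and 1063.

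*mt-Cytb*, *mt-Nd1* and *mt-Co1* had nearly the same number of reads in every library, whatever the cell type, the shRNA or the size of the library. The counts of *mt-Cytb* were 1001, 1028, 1038 and 1036 in CMPs with *Renilla* shRNA, 1039, 1031 and 1010 with sh10, and 1060 and 1061 with sh20. In LSK cells they were 959, 1029, 1002 and 1030 with *Renilla* shRNA, 1063, 1027 and 1043 with sh10, and 1014, 992 and 1042 with sh20. The highest of the 19 was 1.11 times the lowest, while the library totals differed 1.64 times. *mt-Co1* ran from 562 to 662 (1.18 times) and *mt-Nd1*, the complex I subunit next to the quinone site, from 682 to 871 (1.28 times). Within groups the SD was 22.5 counts for *mt-Cytb*, 33.0 for *mt-Nd1* and 19.8 for *mt-Co1*, beside 32.0, 28.2 and 24.8 for the square root of the mean, which is what independent counts alone would give.

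The other 4 members varied more between libraries. *mt-Nd2*, a proton-pumping subunit of complex I, had 342, 439, 443 and 413 counts in CMPs with *Renilla* shRNA, 496, 451 and 408 with sh10, and 713 and 568 with sh20. In LSK cells it had 297, 403, 302 and 348 with *Renilla* shRNA, 504, 334 and 447 with sh10, and 394, 323 and 465 with sh20. Both sh20 libraries of CMPs stood above all 17 others. *mt-Nd5*, the largest pumping subunit of complex I, ran from 511 to 1044 (2.04 times), *mt-Nd6*, the single member read from the light strand, from 216 to 395 (1.83 times), and *mt-Nd4* from 278 to 417 (1.5 times). Together these 4 ran from 1366 to 2490 counts, against 2203 to 2593 for *mt-Cytb*, *mt-Nd1* and *mt-Co1*.

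**Figure D2:**
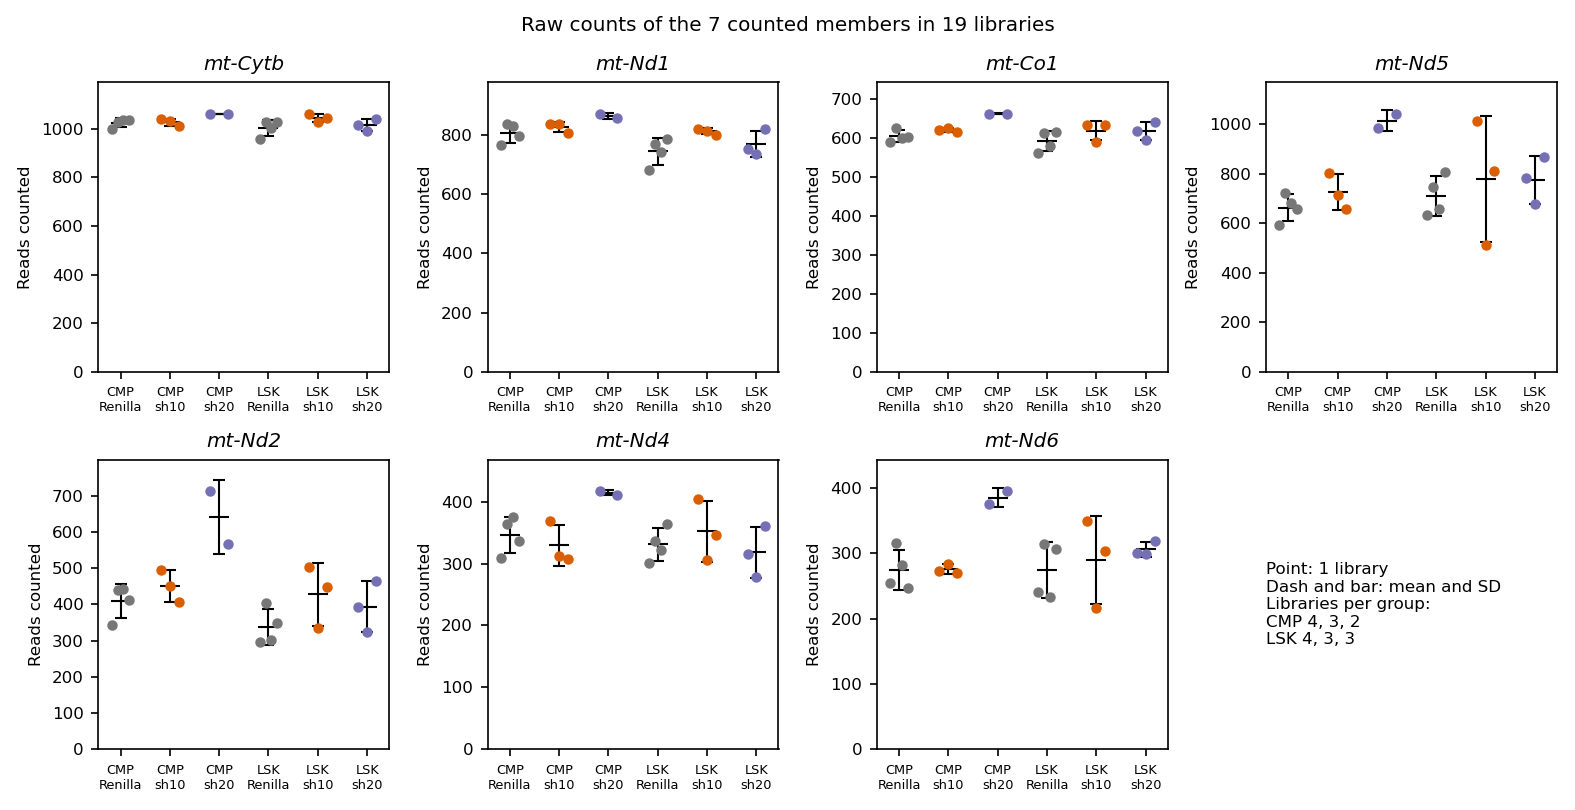
Raw counts (vertical axis, from 0) of the 7 counted members in the 6 groups, 1 point per library, with the mean and SD as dash and bar. *mt-Cytb*, *mt-Nd1* and *mt-Co1* are nearly level across the groups, and *mt-Nd2*, *mt-Nd5* and *mt-Nd6* are highest on average in CMPs with sh20.

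The relation to library size was described by the slope of log2 count on log2 total within the 6 groups, where 1 means that a gene's count grows in proportion to the library. The slope was 0.09 for *mt-Cytb*, 0.14 for *mt-Nd1* and 0.22 for *mt-Co1*, then 0.56 for *mt-Nd4*, 1.05 for *mt-Nd6*, 1.10 for *mt-Nd5* and 1.25 for *mt-Nd2*. The median over the 10484 genes that averaged 50 counts or more was 0.95, with a lower quartile of 0.45, so *mt-Cytb*, *mt-Nd1* and *mt-Co1* lay below that quartile. Their dispersions in edgeR, a measure of the spread beyond counting, were 0.00846, 0.00896 and 0.00872 in the fit of all libraries, against 0.0146 to 0.0215 for the other 4 members and a median of 0.0654 over 15066 genes. The rRNAs of the same genome did not grow with the library either, with slopes of -0.59 for *mt-Rnr1* and -0.03 for *mt-Rnr2*, but they varied more. *mt-Rnr1* ran from 155 to 496 counts with a dispersion of 0.107, and *mt-Rnr2* from 699 to 1241 with 0.0224.

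**Figure D3:**
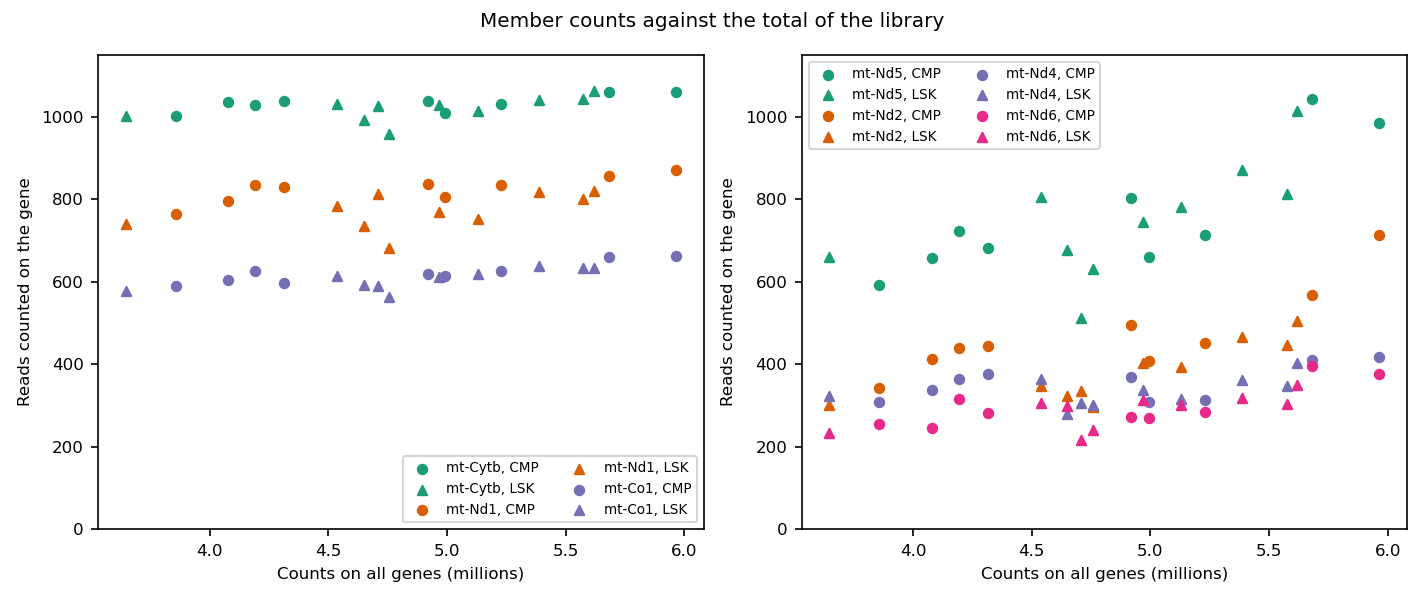
Reads counted on each of the 7 counted members (vertical axis) against the counts on all genes of the same library (horizontal axis), with circles for CMPs and triangles for LSK cells. The points of *mt-Cytb*, *mt-Nd1* and *mt-Co1* on the left stay nearly level from the smallest to the largest library, and those of *mt-Nd5* and *mt-Nd2* on the right rise with it.

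Per window of 50 bases that occurs in no other transcript, the mean level was 0.938 reads for *mt-Cytb*, 0.878 for *mt-Nd1* and 0.840 for *mt-Co1*. It was 0.685 for *mt-Nd4*, 0.624 for *mt-Nd6*, 0.469 for *mt-Nd2* and 0.461 for *mt-Nd5*. *mt-Cytb* was above *mt-Nd1* in 19 of 19 libraries, *mt-Co1* above *mt-Nd4* in 19 and *mt-Nd6* above *mt-Nd2* in 19. The order of the other neighbours was less stable, with *mt-Nd1* above *mt-Co1* in 16 of 19, *mt-Nd4* above *mt-Nd6* in 16 and *mt-Nd2* above *mt-Nd5* in 9. The order depends on the length used, since per base of the whole gene the mean level of *mt-Co1* (0.397) was below that of *mt-Nd6* (0.565), *mt-Nd5* (0.415) and *mt-Nd2* (0.410). No member reached 1 read per window in any library, with 0.971 the highest value, for *mt-Cytb*. The authors removed duplicate alignments before counting. Whether reads were single or paired is not given in the sources used here, the reads before that step were not analysed here, and its part in these levels and in the CPM differences below was not tested.

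Nuclear genes of high coverage had a smaller median slope, and a lower median fold change upon knockdown in CMPs, than those of lower coverage. In a grouping of the nuclear genes by counts per exonic base that was chosen after the values were seen, the median slope was 0.88 in 1732 nuclear genes below 0.01 counts per base, 1.19 in 2593 genes from 0.01 to 0.03 and 0.30 in 186 genes above 0.5, where *mt-Cytb* (0.897), *mt-Nd1* (0.833) and *mt-Nd6* (0.565) also lie, although the slope of *mt-Nd6* itself was 1.05. The median log2 fold change of *Spehd* knockdown against *Renilla* in CMPs was 0.04, 0.09 and -0.23 in these classes, with negative values in 816 of 1732, 1047 of 2593 and 175 of 186 genes. These are counts of sign and not of calls, since edgeR called 10 genes lower among all those tested in this comparison. In LSK cells the medians were -0.08, -0.03 and -0.10, so the lowest class was there close to the highest. In the classes from 0.03 to 0.1, 0.1 to 0.3 and 0.3 to 0.5 counts per base they were 0.01, 0.04 and -0.02. In CMPs the medians of these classes were 0.07, -0.01 and -0.14.

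Mitochondrial members together took 0.0984% to 0.103% of the counts in CMPs with *Renilla* shRNA, 0.0813% to 0.0901% with sh10 and 0.0852% to 0.0879% with sh20. All 5 *Spehd* libraries thus lay below all 4 *Renilla* libraries in this share. In LSK cells the groups overlapped, at 0.0772% to 0.105%, 0.0787% to 0.0852% and 0.0814% to 0.0838%. The denominator moved at the same time, since the CMP libraries with *Spehd* shRNAs were the larger ones.

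In CMPs, *mt-Cytb*, *mt-Nd1*, *mt-Co1* and *mt-Nd4* were lower in CPM in every library with a *Spehd* shRNA than in any *Renilla* library, but none of the 7 members tested passed the threshold when both shRNAs were taken as a group. *mt-Cytb* lay at 259, 245, 241 and 254 CPM with *Renilla* shRNA, at 211, 197 and 202 with sh10 and at 178 and 187 with sh20. *mt-Nd1* lay at 198, 199, 192 and 195 CPM with *Renilla* shRNA, at 170.2, 159.7 and 161 with sh10 and at 146 and 151 with sh20. *mt-Co1* lay at 153, 149, 139 and 148, at 126, 119.5 and 123, and at 111 and 116. In each of these genes the sh20 libraries were the lowest and no *Spehd* library reached a *Renilla* library. For *mt-Cytb* the log2 fold change was -0.33 ± 0.07 (SE; 5 against 4 libraries; adjusted p = 0.0700, quasi-likelihood test of edgeR, Benjamini-Hochberg adjusted over every gene tested). For *mt-Nd1* it was -0.29 ± 0.07 (adjusted p = 0.0796 in the same edgeR test), for *mt-Co1* -0.28 ± 0.07 (adjusted p = 0.0946) and for *mt-Nd4* -0.29 ± 0.10 (adjusted p = 0.177).

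The remaining 3 counted members did not separate the groups. *mt-Nd2* lay at 88.6, 105, 103 and 101 CPM in CMPs with *Renilla* shRNA, at 101, 86.3 and 81.7 with sh10 and at 119.5 and 99.98 with sh20, a log2 fold change of 0.00 ± 0.12. *mt-Nd5* had -0.02 ± 0.10 and *mt-Nd6* -0.15 ± 0.12, and edgeR's adjusted p for these 3 was 0.599 or more. The median over the 7 members was -0.28, beside 0.02 over the 12912 genes tested. edgeR called 15 of these genes (0.116%), so a count of 0 members is near the background of this test, and 4 of the 7 members against 2149 of all genes had an unadjusted p under 0.05. A complete separation in CPM, with the 5 knockdown libraries all lower, was seen in 4 of the 7 members and in 7.59% of the genes tested. DESeq2 called *mt-Cytb*, *mt-Nd1* and *mt-Co1* lower (adjusted p = 0.00239, 0.00673 and 0.0159), among 882 genes or 9.39% of those it gave an adjusted p. In edgeR, leaving out sh20 replicate B also brought *mt-Cytb* past the threshold (-0.29, adjusted p = 0.0466). So did 3 other settings of edgeR. With upper quartile normalization *mt-Cytb* (-0.38, adjusted p = 0.0361), *mt-Nd1* (-0.34, adjusted p = 0.0420) and *mt-Co1* (-0.33, adjusted p = 0.0462) were called, among 2.54% of all genes. With the shRNAs as separate groups that were then averaged they were called at -0.35, -0.31 and -0.29 (adjusted p = 0.0102, 0.0140 and 0.0318), among 4.88% of all genes, and with all 19 libraries in 1 fit *mt-Cytb* was (-0.36, adjusted p = 0.0284), among 2.42%. A pair of settings brought the values of *mt-Cytb*, *mt-Nd1* and *mt-Co1* toward 0. With the offset for gene coverage described below they had -0.07, -0.03 and -0.15, and with the log2 total as a covariate over all 19 libraries -0.04, -0.02 and -0.04. Not every member moved toward 0. *mt-Nd2*, *mt-Nd5*, *mt-Nd6* and *mt-Nd4* had 0.16, 0.12, 0.05 and -0.22 with the offset. With the covariate they had -0.13, -0.08, -0.20 and -0.16.

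**Figure D4:**
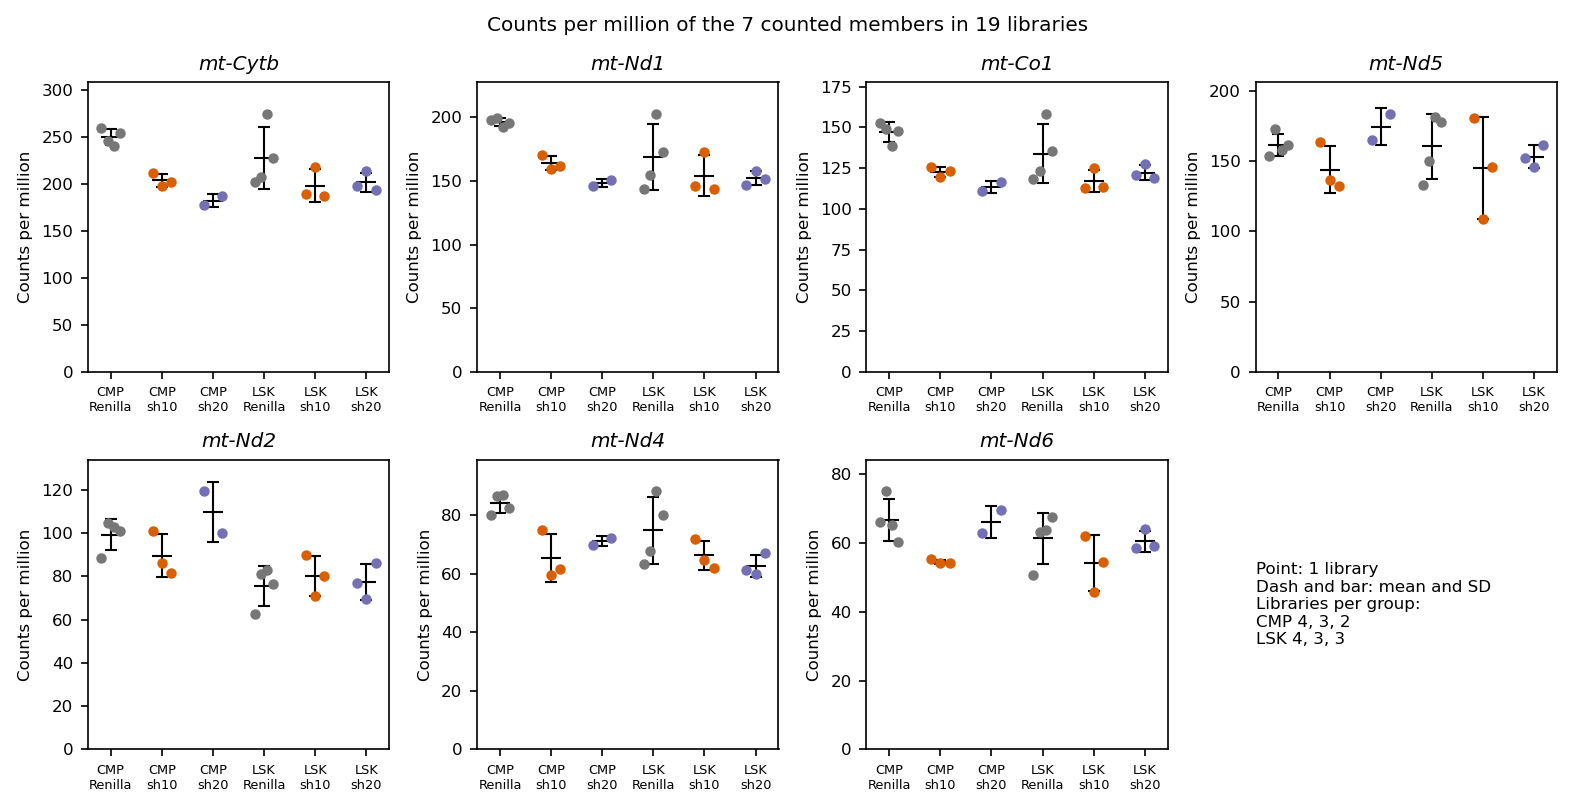
CPM (vertical axis, from 0) of the 7 counted members in the 6 groups, 1 point per library, with the mean and SD as dash and bar. In CMPs *mt-Cytb*, *mt-Nd1* and *mt-Co1* step down from *Renilla* over sh10 to sh20, which the raw counts do not, and in LSK cells the groups overlap for all 7.

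By shRNA, *mt-Cytb*, *mt-Nd1* and *mt-Co1* were lower in CPM with sh20 in CMPs. Against the *Renilla* libraries the log2 fold change was -0.45 ± 0.06 for *mt-Cytb* (SE; 2 against 4 libraries; adjusted p = 0.00930, edgeR's quasi-likelihood test), -0.40 ± 0.07 for *mt-Nd1* (adjusted p = 0.0118) and -0.37 ± 0.08 for *mt-Co1* (adjusted p = 0.0313). The raw counts went the other way, since both sh20 libraries held more reads of all 7 counted members than any CMP *Renilla* library, with mean totals that differed by 0.50 on the log2 scale and mean counts that differed by 0.05 for *mt-Cytb*, 0.10 for *mt-Nd1* and 0.13 for *mt-Co1*. *mt-Nd4* (-0.23 ± 0.13), *mt-Nd6* (-0.01 ± 0.13), *mt-Nd5* (0.12 ± 0.10) and *mt-Nd2* (0.15 ± 0.13) did not pass. The 3 of 7 calls stand beside 853 of 13824 genes (6.17%), and in the same libraries the sums of B cell and erythroid transcripts given above were the highest of the CMP libraries, and the gate markers and the genes detected the lowest. Alignments to several places were 1.97 and 1.95 times the counts on genes there, above the 1.66 to 1.81 of *Renilla* and the 1.47 to 1.66 of sh10 libraries. The part of these differences in the calls was not tested. All 3 calls were lost when each library's counts were adjusted for a trend over gene coverage (an offset fitted to counts per exonic base), with values of -0.11 for *mt-Cytb*, -0.06 for *mt-Nd1* and -0.20 for *mt-Co1*. They were also lost with the log2 total as a covariate over all 19 libraries, with -0.07, -0.04 and -0.05. In CMPs the totals with *Spehd* and *Renilla* shRNAs did not overlap, so this setting cannot separate library size from the knockdown. Its SE for *mt-Cytb* was 0.10, and over all genes it called 20. A fit with the replicate letters as a block, given in the closing section, ended the 3 calls too. *mt-Co1* was lost besides when any one of sh10 replicate A, B or C, sh20 replicate B or *Renilla* replicate A, B or D was left out, with adjusted p from 0.0527 to 0.0947 in edgeR, and with no filter (adjusted p = 0.0858) or all 19 libraries in 1 fit (0.0578), although its fold change in these settings stayed between -0.38 and -0.34. It was called in 7 of 19 alternatives, and *mt-Cytb* and *mt-Nd1* in 16 of 19 each.

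With sh10, none of the 7 members passed in edgeR in CMPs, where 272 genes (1.97%) did. DESeq2 called *mt-Cytb* and *mt-Nd1* lower (adjusted p = 0.0105 and 0.0418), as did edgeR with upper quartile normalization (adjusted p = 0.0301 and 0.0420). Over all genes these settings called 1230 of 13282 (9.26%) and 451 of 13824 (3.26%), 338 of the latter lower. The differences ran from -0.32 ± 0.11 for *mt-Nd4* to -0.11 ± 0.11 for *mt-Nd2*, all 7 of them negative, except that *mt-Nd2* turned to 0.01 with the coverage offset and *mt-Nd1* to 0.00 with the log2 total as a covariate, with a median of -0.22 beside -0.01 over all genes. The smallest adjusted p in edgeR was 0.0528, for *mt-Cytb* (-0.25 ± 0.06), and it fell to 0.0346 and 0.0368 when sh20 replicate B or C was left out of the fit. *mt-Nd6*, whose protein is part of the membrane arm of complex I, was even among the sh10 libraries at 55.3, 54.3 and 54.1 CPM, below the 60.3 to 75.2 of the *Renilla* libraries (-0.25 ± 0.12, adjusted p = 0.266 in edgeR). Both shRNAs were set against the same 4 *Renilla* libraries, and the difference between sh10 and sh20 was not tested.

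In LSK cells no member passed the test with either shRNA. *mt-Cytb* lay at 202, 207, 275 and 227 CPM with *Renilla* shRNA, at 189, 218 and 187 with sh10 and at 198, 213 and 193 with sh20, and the high *Renilla* value belongs to replicate C, the smallest library. The differences with both shRNAs ran from -0.24 ± 0.13 for *mt-Nd4* to 0.04 ± 0.13 for *mt-Nd2*, with a median of -0.16 beside 0.00 over 13441 genes, and edgeR's adjusted p was 0.998 for all 7. That median ran from -0.23 without *Renilla* replicate A to -0.09 without *Renilla* replicate C, and was -0.07 with the coverage offset and -0.04 with the log2 total as a covariate. edgeR called 0% of the genes in this comparison, in which 492 genes, *mt-Cytb* among them, had an unadjusted p under 0.05. It also called 0% with sh10 alone (457 genes at an unadjusted p under 0.05) and 0% with sh20 alone (1152 genes), where DESeq2 called 0, 3 and 195 genes in these comparisons and no member. The knockdown effect in CMPs minus that in LSK cells, tested as an interaction, was -0.16 ± 0.12 for *mt-Nd1*, -0.15 ± 0.11 for *mt-Cytb* and -0.12 ± 0.12 for *mt-Co1*, against 0.11 ± 0.19 for *mt-Nd5*, the single positive value, and edgeR's adjusted p was 0.630 or more for all 7 members, where 8 of 15066 genes (0.0531%) passed. With the coverage offset *mt-Nd1*, *mt-Cytb* and *mt-Co1* turned to 0.02, 0.03 and 0.00.

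Between the cell types, *mt-Nd2* was the single member that passed the test. With *Renilla* shRNA it lay at 88.6 to 105 CPM in CMPs and at 62.4, 81.1, 82.8 and 76.7 in LSK cells, with no overlap, a log2 fold change of 0.41 ± 0.13 in CMPs over LSK cells (4 against 4 libraries; adjusted p = 0.0315, edgeR). With sh20 it lay at 119.5 and 99.98 CPM in CMPs and at 76.8, 69.5 and 86.3 in LSK cells (0.51 ± 0.16, adjusted p = 0.0459, edgeR), and with sh10 at 81.7 to 101 and 70.9 to 89.7 (0.26 ± 0.15, adjusted p = 0.254, edgeR). Each call rests on 1 of 7 members, where 2979 of 15066 genes (19.8%) passed with *Renilla* shRNA, 2197 (14.6%) with sh20 and 2424 (16.1%) with sh10. Both were also near the threshold. The call with *Renilla* shRNA was lost when CMP *Renilla* replicate B, C or D or LSK *Renilla* replicate A or D was left out (adjusted p from 0.0530 to 0.106 in edgeR, with a fold change of 0.34 without LSK replicate A and 0.39 to 0.43 in the others), and with the coverage offset (0.25, adjusted p = 0.228). It was lost as well with no filter (0.38, adjusted p = 0.161, edgeR) and with the replicate block (0.41, adjusted p = 0.0588, edgeR). With sh20, the fold change was 0.37 without CMP sh20 replicate B, which leaves 1 CMP library with that shRNA. The call with sh20 was lost when LSK sh20 replicate A or B was left out (0.51 and 0.46). The same held for LSK sh10 replicate C, LSK *Renilla* replicate B or CMP *Renilla* replicate D (0.51 in each). Upper quartile normalization (0.47, adjusted p = 0.0601, edgeR), low counts left unfiltered (0.49, 0.148) and the stricter filter (0.50, 0.0540) ended this call too. So did the replicate block (0.51, adjusted p = 0.0884, edgeR) and the log2 total as a covariate (0.43, 0.135).

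None of the other members passed between the cell types in edgeR, with values from 0.03 ± 0.14 for *mt-Nd5* to 0.24 ± 0.09 for *mt-Nd1* under *Renilla* shRNA and adjusted p of 0.0595 or more. LSK *Renilla* replicate C decides part of this. Without it, *mt-Nd1* (0.33, adjusted p = 0.00745), *mt-Cytb* (0.25, adjusted p = 0.0190) and *mt-Co1* (0.24, adjusted p = 0.0481) were called higher in CMPs as well, all in edgeR, and without LSK sh10 replicate B *mt-Nd1* was (adjusted p = 0.0306). How many of all genes these fits called is not given here, and with all libraries it was 2979 of 15066 (19.8%). With sh20, *mt-Cytb* (-0.14 ± 0.11), *mt-Co1* (-0.10 ± 0.11) and *mt-Nd1* (-0.03 ± 0.11) were negative where *mt-Nd2*, *mt-Nd5*, *mt-Nd4* and *mt-Nd6* were positive. With the log2 total as a covariate these 3 turned positive, at 0.02, 0.03 and 0.12.

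**Figure D5:**
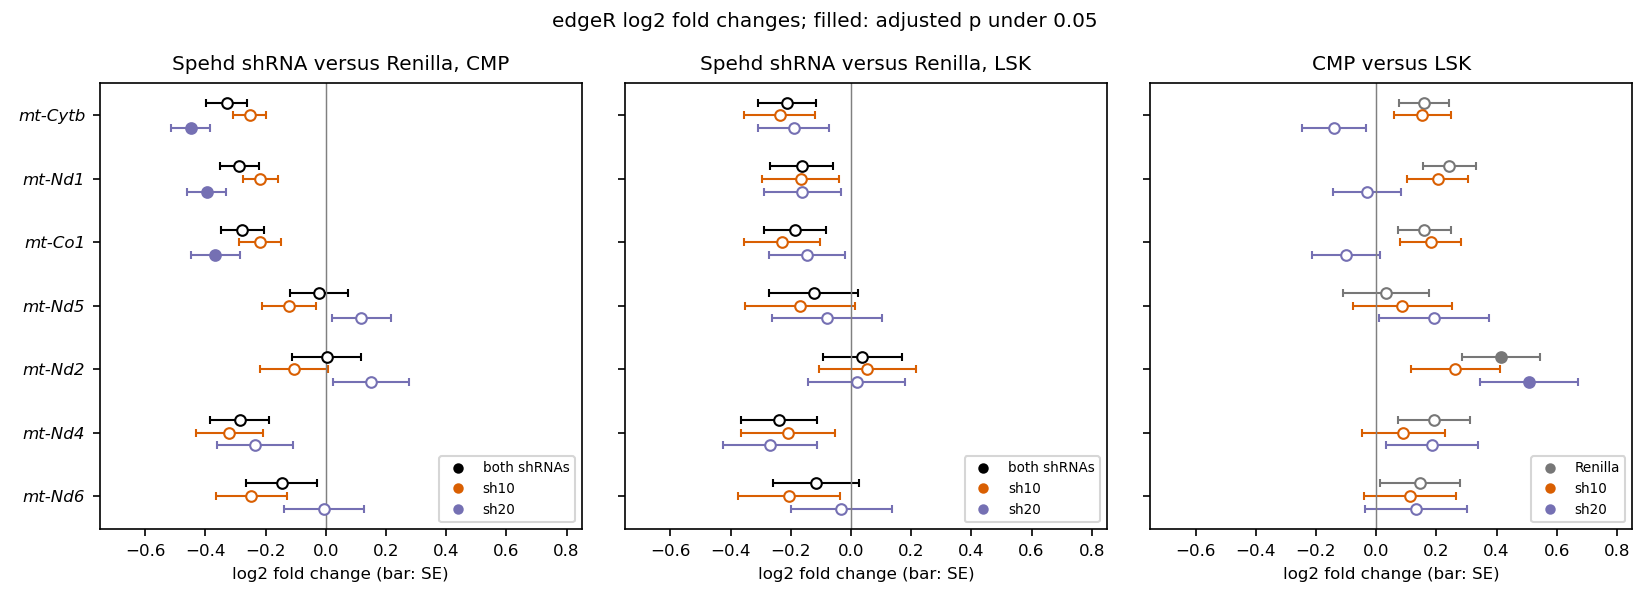
edgeR log2 fold changes (horizontal axis, bars are SE) of the 7 counted members for *Spehd* shRNA against *Renilla* in CMPs and in LSK cells, and for CMPs against LSK cells by shRNA. Filled points passed an adjusted p of 0.05, which were *mt-Cytb*, *mt-Nd1* and *mt-Co1* with sh20 in CMPs and *mt-Nd2* between the cell types with *Renilla* shRNA and with sh20.

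Among the members, those that were counted evenly also varied alike once divided by the library total. Over the 19 libraries, log2 CPM of *mt-Co1* and *mt-Cytb* had a Pearson r of 0.984, *mt-Nd1* and *mt-Co1* 0.956, and *mt-Nd5* and *mt-Nd6* 0.843, while *mt-Nd2* and *mt-Cytb* had 0.142. These are descriptions, since all genes of a library share its total. *mt-Nd5* and *mt-Nd6* lie on opposite strands and overlap at chrM:13552-13565, and the kit does not mark the strand, so reads of *mt-Nd6* and of the heavy-strand transcript across it cannot be told apart. The ratio of *mt-Nd6* to *mt-Nd5* counts ran from 0.374 to 0.436 in CMPs with *Renilla* shRNA, from 0.339 to 0.410 with sh10 and from 0.378 to 0.381 with sh20, and from 0.344 to 0.440 in LSK cells, and all groups overlapped. Outside the members, the genes whose log2 CPM was most like the mean of the 7, among 10477 candidates, were *Tipin* (r = 0.875), *Gas5* (0.865), *Hnrnpk* (0.864), *Npm1* (0.859) and *Cetn3* (0.852).

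The rest of the mitochondrial genome gave little to compare. Of its 27 other genes, 3 passed the filter in CMPs, and none was called in any comparison. *mt-Rnr2*, the RNA of the large mitochondrial ribosomal subunit, had a log2 fold change of -0.12 ± 0.12 upon knockdown in CMPs (adjusted p = 0.689 in edgeR). *mt-Tm*, a tRNA gene with at most 18 counts in a library, had 0.16 ± 0.53.

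The nuclear genes that complete the same complexes were also lower with either shRNA in CMPs where they passed the test. With sh20, edgeR called 4 of 36 nuclear complex I genes lower (median -0.29), among them *Ndufa9* (-0.33 ± 0.07) and *Ndufv2* (-0.36 ± 0.08), 2 of 9 of complex III (median -0.31), *Uqcrc1* (-0.43 ± 0.06) and *Cyc1* (-0.31 ± 0.08), 3 of 10 of complex IV (median -0.41), with *Cox4i1* (-0.47 ± 0.09), and 5 of 15 of the ATP synthase (median -0.36), with *Atp5a1* (-0.46 ± 0.05) and *Atp5b* (-0.43 ± 0.06). None was called higher, and over all genes 853 of 13824 (6.17%) were called, 590 of them lower (4.27%). With sh10, edgeR called 2 of the 15 ATP synthase genes lower, *Atp5a1* (-0.23 ± 0.04, adjusted p = 0.0379) and *Atp5b* (-0.24 ± 0.05, adjusted p = 0.0451), and no gene of the other 3 lists, beside 0.991% of all genes called lower. The medians with sh10 were -0.26 for complex I, -0.27 for complexes III and IV and -0.24 for the ATP synthase. With both shRNAs as a group none was called, with medians from -0.33 to -0.28. The nuclear genes were not followed through the other settings. Over all genes the 853 calls with sh20 became 453 with the coverage offset, 20 with the log2 total as a covariate and 0 with the replicate block. With sh10 the 272 calls became 191, 1 and 5. In LSK cells the medians were -0.02 for complexes I and III, -0.10 for complex IV and -0.11 for the ATP synthase, where the 7 members had -0.16 (-0.09 without *Renilla* replicate C). Between control CMPs and control LSK cells 21 of 36, 7 of 9, 5 of 10 and 3 of 15 of the nuclear genes were called higher in CMPs, for example *Uqcrc2* (0.50 ± 0.07), *Ndufb10* (0.46 ± 0.10) and *Cox7a2* (0.43 ± 0.12), against 1 of the 7 members and 11% of all genes (1663 of 15066 called higher). The difference between nuclear and mitochondrial genes was not itself tested.

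Genes that make, process and translate mitochondrial transcripts were not called upon knockdown in CMPs in either direction, a count of 0 that is near the background of 0.116% of all genes called in this comparison. The median was 0.14 over 18 genes of mitochondrial DNA upkeep and transcription, 0.19 over 21 of RNA handling and 0.14 over 9 translation factors. *Lrpprc*, which stabilizes mitochondrial mRNAs, had 0.45 ± 0.12 (adjusted p = 0.0946 in edgeR), and *Ssbp1*, which binds single-stranded mitochondrial DNA, had -0.25 ± 0.09 (adjusted p = 0.181). Between control CMPs and LSK cells, 1 of the 18 was higher in CMPs, the mitochondrial RNA polymerase *Polrmt* (0.43 ± 0.15, adjusted p = 0.0467, edgeR), as were 4 of the 21, among them the RNase *Rexo2* (0.70 ± 0.09) and *Elac2*, which cuts the ends of tRNAs (0.52 ± 0.13), and 2 of the 9, *Tsfm* (0.57 ± 0.11) and *Mtif2* (0.60 ± 0.19). Over all genes 1663 of 15066 (11%) were called higher in that comparison.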

How the data were processed

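Per the study's methods, SMART-Seq v4 libraries were aligned to mm10 (STAR), duplicate alignments were dropped (Picard) and the remainder was assigned to genes (HTSeq-count). The methods state default parameters, with which HTSeq-count counts by strand, although the kit does not mark it. The deposited counts of the 19 libraries are whole numbers without normalization and were used as they are, without the summary lines of HTSeq. A table of normalized values was not used. Depth was 3647318 to 5965155 counts per library.

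CPM is the count scaled to 1000000 counts per library. Genes were tested with edgeR 4.0.16 (TMM, filterByExpr with a minimum count of 10 and total of 15, quasi-likelihood test, Benjamini-Hochberg adjustment over all genes tested, threshold 0.05), with DESeq2 1.42.0 as an alternative, in R 4.3.3. Knockdown was fitted within a cell type, with both *Spehd* shRNAs as a group or apart, and CMPs against LSK cells in a fit of all 6 groups. A slope used log2(count + 0.5). Shared windows were sought on both strands of the GENCODE vM21 transcripts (GRCm38, the assembly of mm10). Code was tested on simulated data. All members are reported. From each list of other genes the text names at most 3 per direction with the smallest p among those called, or else the 2 with the smallest p, and the 5 genes most alike come from those with a mean of at least 50 counts. The members and lists were chosen with earlier results of these data known. Alternatives are given in the closing section.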

Additional observations from a re-analysis of the deposited data

How the results depend on the processing

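Of 1617 alternative values for single members, 1558 kept their direction and side of the threshold or were never called, 37 lost a call, 22 gained one and none that was called reversed. In CMPs with both shRNAs, 3 members were called with upper quartile normalization, DESeq2 and the shRNAs as separate groups, 1 with all 19 libraries in 1 fit and 0 to 1 when a library was left out. The median of the members ran from -0.33 to -0.03, the latter with the coverage offset. With sh10, 2 were called with upper quartile normalization and DESeq2, 1 with at least 10 counts in every library and 0 to 1 without a library. With sh20, 0 were called with the offset or the log2 total as a covariate, and 2 to 3 without a library. Between cell types with *Renilla* shRNA, 0 were called with no filter or the offset and 0 to 4 without a library. With sh20, 0 were called with upper quartile normalization, no filter, the stricter filter or the covariate, and 0 to 1 without a library. The replicate block took the calls with sh20 in CMPs and both calls between cell types to 0, with *mt-Cytb* at -0.41, *mt-Nd1* at -0.38 and *mt-Co1* at -0.34 with sh20 (adjusted p = 0.0905, 0.108 and 0.170, edgeR) and *mt-Nd2* at 0.41 with *Renilla* shRNA and 0.51 with sh20 between cell types (0.0588 and 0.0884). Letters are not stated to pair libraries, and deviations of same-letter libraries of a cell type correlated at -0.0792 to 0.0444, and those of the same letter and shRNA across cell types at -0.000694 to 0.210, 2 of 9 over 0.1. Against nuclear protein-coding counts the members' mean share was 0.103% with *Renilla* shRNA, 0.0867% with sh10 and 0.0892% with sh20 in CMPs, and 0.0930%, 0.0841% and 0.0855% in LSK cells. Over all genes in CMPs, edgeR called 15 with both shRNAs (10 lower), but 328 with upper quartile normalization (284 lower), 364 with all libraries in 1 fit, 674 with the shRNAs as separate groups and 882 in DESeq2, and 24, 29 and 5 with the stricter filter, no filter and the covariate. With sh20 the count of 853 (590 lower) became 1063 (850 lower) with upper quartile normalization, 1706 in DESeq2, 453 with the offset, 20 with the covariate and 0 with the block, and with sh10 the 272 (137 lower) became 451 (338 lower), 1230, 191, 1 and 5. The cause of these changes was not tested.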
